A study of Canis lupus familiaris with 10 samples.

Results

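The miR-200 family and its epithelial relatives were described as 8 miRNAs chosen by name (cfa-miR-200a, cfa-miR-200b, cfa-miR-429, cfa-miR-200c, cfa-miR-141, cfa-miR-203, cfa-miR-205 and cfa-miR-375, written without the prefix from here on), and all 8 were among the 320 miRNAs listed in the read counts. Small RNA was sequenced from frozen lymph nodes of dogs, of which 6 had diffuse large B-cell lymphoma (DLBCL1 to DLBCL6) and 4 were healthy (Healthy2 to Healthy5). Each dog gave one library, and the labels name no treatment. The DLBCL dogs were hospital patients of both sexes and several breeds whose affected peripheral node was biopsied under anesthesia. The healthy dogs were young female hound crosses bred for research, and their nodes were collected after euthanasia. Diagnosis, origin, breed, sex and way of sampling therefore cannot be told apart in these values, and the dogs' ages are given only for the healthy group in the sources used here.

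MicroRNAs of the miR-200 family are known as markers of epithelial cells. They repress ZEB1 and ZEB2, the transcription factors that turn off E-cadherin, and so hold cells in the epithelial state. The family has a pair of seeds that differ by a single base, one shared by miR-200b, miR-200c and miR-429 and the other by miR-200a and miR-141. miR-205 acts on the same ZEB factors in stratified epithelium, miR-203 limits the stem-like state of skin keratinocytes by repressing p63, and miR-375 is typical of pancreatic islets and other secretory cells. Lymphocytes are not epithelial cells, and the levels of these miRNAs in the lymph nodes are given below.

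All 8 miRNAs had a gene in RefSeq's annotation of the dog (assembly UU_Cfam_GSD_1.0), from which only the order of genes was taken, as the reads were mapped to another build. The genes of miR-200b, miR-200a and miR-429 followed each other within the span of TTLL10. Those of miR-200c and miR-141 were direct neighbours between PTPN6 and PHB2, within the span of a long non-coding RNA gene. The gene of miR-203 lay within ASPG, that of miR-205 between LOC119872658 and LOC119872493, and that of miR-375 lay between CRYBA2 and CFAP65. Members of the family have related sequences, and how reads that match more than one of them were counted is not given in the sources used here.

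The miRNA reads numbered 10686441 to 25784861 in the DLBCL libraries and 30432969 to 34709421 in the healthy ones. Levels are given as CPM, the read count scaled to the library's miRNA reads times edgeR's TMM factor, which ranged from 0.507 to 2.03. A count of 0 allows a level of up to 0.251 CPM in DLBCL1 and 0.0743 CPM in DLBCL6, the libraries with the highest and lowest such limit, taken as 3 reads. Binomial intervals and the limits for counts of 0 cover counting error only. They treat reads as independent molecules, which PCR copies are not, and so may be too narrow. The intervals of edgeR's fold changes rest on the spread between libraries. In these bulk samples, fewer cells of a type and less RNA per cell cannot be told apart. Of 8 miRNAs typical of lymphocytes and other blood cells (such as miR-150, miR-155 and miR-142), all were listed, and they summed to between 13272 CPM (in DLBCL3) and 29581 CPM (in DLBCL5) in DLBCL and between 23257 and 41703 CPM in healthy nodes. DLBCL3 and DLBCL5 stood apart from the rest in the values below, and results are given with and without them. In the study's clinical data the female patients are L3 and L5, which are these same dogs if the numbers match those of the libraries. A part of sex in the values of DLBCL3 and DLBCL5 was not tested.

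miR-200c was the most abundant of the 8 miRNAs. Its median over the 10 libraries was 13.3 CPM, which ranked 145 among the 320 miRNAs. The medians of miR-203, miR-141 and miR-375 were 8.74, 3.74 and 1.06 CPM, at ranks 156, 179 and 218. miR-200a, miR-205, miR-429 and miR-200b were at the lower end of detection, with medians of 0.121, 0.03, 0 and 0 CPM. Only the first 4 passed edgeR's filter on low counts, which kept 247 miRNAs. In the healthy nodes the ranges of miR-200c and miR-203 overlapped, at 8.93 to 19.7 and 5.94 to 11.6 CPM, and so did those of miR-141 and miR-375, at 1.54 to 7.30 and 1.02 to 7.46 CPM.

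**Figure D1:**
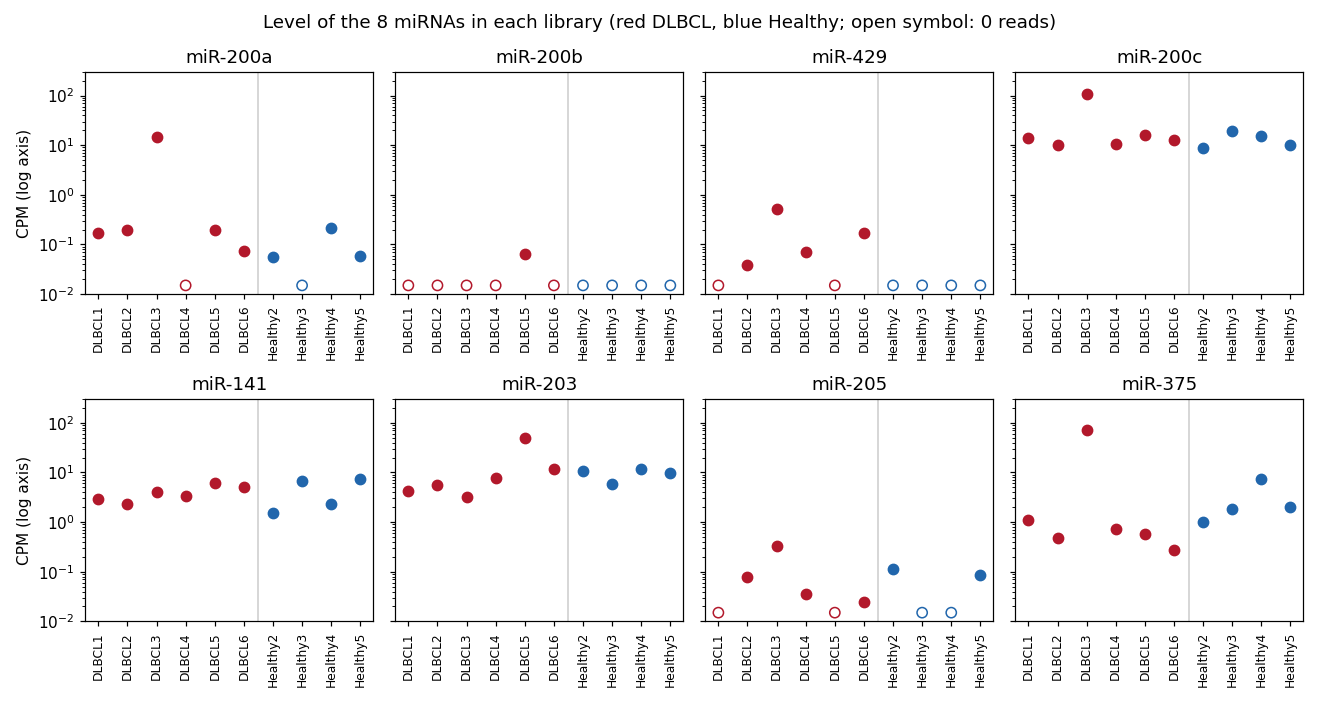
CPM of each of the 8 miRNAs (1 panel each, log axis) in the 6 DLBCL libraries (red) and the 4 healthy libraries (blue), with open symbols at the foot of the panel for libraries with 0 reads. DLBCL3 was the highest library for miR-200a (14.5 CPM), miR-200c (108 CPM), miR-375 (72.6 CPM), miR-429 and miR-205, and DLBCL5 for miR-203 (48.7 CPM), while miR-141 had no library far from the others.

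In DLBCL, miR-200c measured 10.3 CPM in the lowest library, DLBCL2, 13.3 CPM at the median and 108 CPM in the highest, DLBCL3. In Healthy2 to Healthy5 it measured 8.93, 19.7, 15.4 and 10.2 CPM. The 5 DLBCL libraries other than DLBCL3 stayed between 10.3 and 15.8 CPM, inside the healthy range. In TPM, however, DLBCL4 (18.3) and DLBCL6 (26.0) were above the healthy maximum of 17.5. Their means were 28.5 ± 38.8 CPM (SD, n = 6) for DLBCL, 13.6 ± 4.99 CPM (SD, n = 4) for the healthy group and 12.6 ± 2.29 CPM (SD, n = 5) in DLBCL without DLBCL3. On the log2 scale the SD of miR-200c among the DLBCL libraries was 1.29 with DLBCL3 and 0.26 without it. Without DLBCL3 its spread between the DLBCL nodes ranked 241 among the 247 miRNAs tested, from the most to the least variable.

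Its genomic neighbour miR-141 did not share the high value. It measured 2.35 CPM in DLBCL2, 3.74 CPM at the median and 5.99 CPM in DLBCL5, and 4.05 CPM in DLBCL3. In Healthy2 to Healthy5 it measured 1.54, 6.75, 2.36 and 7.30 CPM. In CPM the DLBCL libraries lay inside the healthy range, whereas in TPM DLBCL6 (10.5) was above the healthy maximum of 8.10. In CPM 2 healthy libraries were low and 2 high. The means were 3.98 ± 1.38 CPM (SD, n = 6) and 4.49 ± 2.96 CPM (SD, n = 4).

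miR-200a was almost confined to a single library. DLBCL3 held 307 of its 327 reads, which is 93.9%, and 14.5 CPM. Each of the other 9 libraries had between 0 and 5 reads, and the highest of them was Healthy4 with 0.210 CPM from 4 reads. miR-429, from the same genomic cluster, had 11 reads in DLBCL3, 7 in DLBCL6, 2 in DLBCL4, 1 in DLBCL2 and 0 in the other 6 libraries, all healthy ones included. miR-200b, the third gene of the cluster, had 1 read in DLBCL5 and 0 elsewhere. In DLBCL3 the cluster as a whole had 318 reads with 0 on miR-200b, which allows it a share of up to 0.943% of them. No fold is given for miR-429 and miR-200b, since the healthy libraries were all at 0 and the DLBCL levels were near the limit that a count of 0 allows.

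On the log scale, miR-375 spanned the widest range of the 4 miRNAs that passed the filter. In DLBCL it measured 0.273 CPM in DLBCL6, 0.663 CPM at the median and 72.6 CPM in DLBCL3, and DLBCL3 held 81.8% of its reads over all libraries. In Healthy2 to Healthy5 it measured 1.02, 1.80, 7.46 and 1.99 CPM. Without DLBCL3 the remaining DLBCL libraries reached 1.09 CPM in DLBCL1, so that they met the healthy range only at its lower edge, in Healthy2. In TPM the overlap was wider, with these DLBCL libraries at up to 1.29 and the healthy ones at 0.519 to 4.67. Mean levels were 12.6 ± 29.4 CPM (SD, n = 6) for DLBCL, 0.631 ± 0.307 CPM (SD, n = 5) in DLBCL without DLBCL3, and 3.07 ± 2.96 CPM (SD, n = 4) in the healthy group. The log2 SD of miR-375 among the DLBCL libraries, 2.83, ranked 7 among the 247 miRNAs tested, and was 0.64 without DLBCL3.

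miR-203 followed another library. It measured 3.25 CPM in DLBCL3, its lowest value of all, 6.62 CPM at the DLBCL median and 48.7 CPM in DLBCL5, its highest. In Healthy2 to Healthy5 it measured 10.8, 5.94, 11.6 and 9.79 CPM. In TPM, miR-203 was at 34.0 in DLBCL5, 24.3 in DLBCL6 and 13.4 in DLBCL4, against at most 10.9 in healthy nodes. In CPM the DLBCL libraries other than DLBCL5 ranged from 3.25 to 11.97 CPM, so that 4 of these 5 were within or below the healthy range and DLBCL6 was just above it. The means were 13.6 ± 17.5 CPM (SD, n = 6) and 9.51 ± 2.48 CPM (SD, n = 4). miR-205 had 16 reads in all, 7 of them in DLBCL3, 2 in DLBCL2, 1 each in DLBCL4 and DLBCL6, 2 in Healthy2 and 3 in Healthy5.

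The comparison that the labels allow, DLBCL against healthy nodes, was made with edgeR's quasi-likelihood test over the 247 miRNAs, and miRNAs past both an adjusted p-value of 0.05 and a 2-fold change are called differentially expressed (DEMs). None of the 4 miRNAs of this set that were tested was a DEM (0 of 4, against 14 of 247 in all, 5.67%), and 0 of the 4 had an unadjusted p-value under 0.05 (against 26.7% of all tested). Their groups overlapped in CPM in every case, while 13.0% of the miRNAs tested had groups that did not overlap. Without DLBCL3 the groups of these 4 still overlapped, against 14.8% of the miRNAs tested without overlap. Those of miR-200a, miR-200b, miR-429 and miR-205, which were not tested, had a library at 0 CPM in each group, so that they could only overlap. The median log2 fold change of the 4 was 0.79, and that of all miRNAs tested was 0.13. Without DLBCL3 these medians were -0.12 and 0.17, so that the sign of the first rested on that library. DESeq2 gave an adjusted p-value to 3 of the 8, miR-141, miR-203 and miR-429, and called 0 of these 3 (against 17.2% of all with an adjusted p-value). Its filter on outlying counts left miR-200a, miR-200c and miR-375 without a p-value. With that filter switched off, DESeq2 called miR-200a alone of the 8, at 5.33 on the log2 scale (standard error 1.97, DESeq2 adjusted p = 0.0421), in a fit that called 17.4% of the miRNAs with an adjusted p-value. This miR-200a value rests on the reads of DLBCL3. edgeR without its filter on low counts called 0 of the 8 and 5.31% of all, with unadjusted p-values of 0.0267 for miR-200a and 0.0181 for miR-429, in a fit where 24.7% of the miRNAs had one under 0.05. Also limma-voom with quality weights (18.6% called), edgeR within the libraries of lower sequencing quality (17.8% called) and edgeR without DLBCL5 (5.71% called) called 0 of the 4.

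For miR-200c the log2 fold change was 1.07 (standard error 0.76, 95% interval -0.58 to 2.72, adjusted p = 0.36 from edgeR). Without DLBCL3 it was -0.07, with an interval of -0.93 to 0.79. Within the libraries of lower sequencing quality (Q30) in the study's table, which are DLBCL4, DLBCL6 and the 4 healthy ones, it was -0.23. On the mean of log2 CPM the difference was 0.47 (two-sided exact permutation test, p = 0.7), and when scaled by total miRNA reads it was 1.16 (exact p = 0.0905). For miR-141 it was -0.18 (standard error 0.56, interval -1.38 to 1.03, edgeR adjusted p = 0.859), and -0.08 in the libraries of lower Q30. This interval holds a fold change of 2 in either direction.

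The estimate for miR-375 changed sign with 1 library. With all 10 libraries its log2 fold change was 2.04 (standard error 1.60, interval -1.42 to 5.51, adjusted p = 0.405 from edgeR). Without DLBCL3 it was -2.25 (standard error 0.66, interval -3.71 to -0.79, adjusted p = 0.0588 from edgeR), with an unadjusted p-value of 0.00585 from edgeR in a fit where 27.9% of the miRNAs had one under 0.05 and 9.02% were DEMs. With DLBCL4 and DLBCL6 alone against the healthy nodes it was -2.62 (adjusted p = 0.119 from edgeR). On the mean of log2 CPM, where single high values weigh less, the difference was negative with all libraries too, at -0.72 (two-sided exact permutation test over 210 splits, p = 0.705), and without DLBCL3 it was -1.85 (126 splits, exact p = 0.0238, unadjusted, where 0.00794 is the smallest they allow).

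For miR-203 the log2 fold change was 0.51 (standard error 0.76, interval -1.13 to 2.15, adjusted p = 0.707 from edgeR). Without DLBCL5 it was -0.54, with an interval of -1.65 to 0.58, and in the libraries of lower Q30 it was 0.04. The difference of mean log2 CPM was -0.13, of the other sign than the fold change with all libraries. In the exact permutation test on log2 CPM over the 10 libraries, the unadjusted p-values of the 8 miRNAs ranged from 0.133 for miR-429 to 1 for miR-200b, where 0.00476 is the smallest that 6 libraries against 4 allow.

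**Figure D2:**
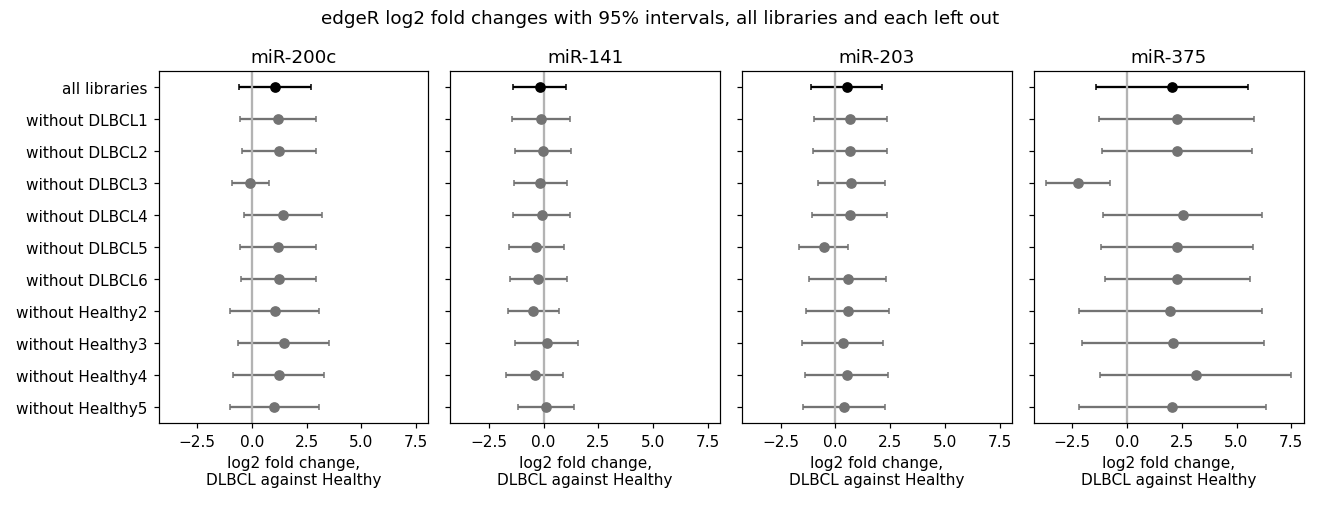
Log2 fold changes of DLBCL against healthy nodes (x axis) from edgeR for the 4 miRNAs tested, with 95% intervals, for all 10 libraries (black) and after leaving out single libraries (grey). miR-200c moved from 1.07 to -0.07 and miR-375 from 2.04 to -2.25 without DLBCL3, miR-203 moved from 0.51 to -0.54 without DLBCL5, and miR-141 stayed between -0.47 and 0.13.

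Summed over the 8 miRNAs, the level was 19.0 CPM in the lowest DLBCL library, 26.5 CPM at the median and 203 CPM in DLBCL3, and between 22.4 and 37.0 CPM in healthy nodes. DLBCL5 came second with 71.3 CPM, and the other 4 DLBCL libraries lay between 19.0 and 30.5 CPM. This order depended on the scaling. In TPM, which scales by the miRNA reads without the TMM factor, DLBCL6 came second with 61.9, ahead of DLBCL5 with 49.8. In TPM the 8 summed to 167 in DLBCL3 (exact 95% binomial interval 162 to 172) and to between 11.3 and 32.6 in the healthy libraries. DLBCL4 (39.2), DLBCL5 and DLBCL6 were also above the healthy maximum in TPM, and DLBCL1 (24.8) and DLBCL2 (26.7) were within the healthy range. In CPM only DLBCL3 and DLBCL5 were above it. The makeup of the sum differed as well. In DLBCL3, miR-200c gave 53.1% of these reads, miR-375 35.8%, miR-200a 7.12%, miR-141 1.995% and miR-203 1.60%. In DLBCL5, miR-203 gave 68.3% and miR-200c 22.1%. In the healthy libraries miR-200c gave 34.6% to 57.7%, miR-203 17.4% to 48.0%, miR-141 6.38% to 24.8% and miR-375 4.57% to 20.1%.

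**Figure D3:**
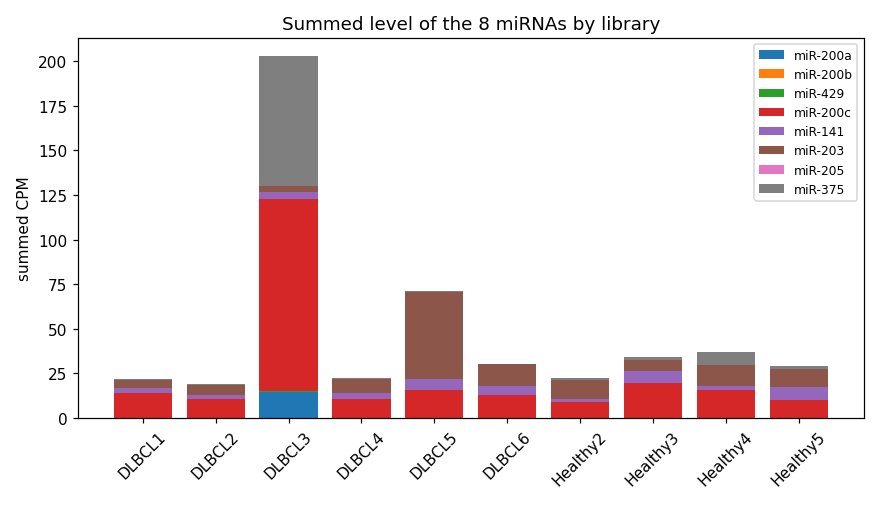
Summed CPM of the 8 miRNAs in each library (bar height, linear axis from 0), with 1 colour for each miRNA. DLBCL3 reached 203 CPM, mostly of miR-200c and miR-375, and DLBCL5 71.3 CPM, mostly of miR-203, while the other 8 libraries lay between 19.0 and 37.0 CPM.

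The neighbours miR-200c and miR-141 were set against each other within each library, where the scaling cancels. miR-200c had 26.6 times the reads of miR-141 in DLBCL3, 2.49 to 4.69 times in the other DLBCL libraries and 1.39 to 6.53 times in the healthy ones. Its share of the reads of the pair was 96.4% in DLBCL3 (exact 95% interval 95.5 to 97.1%), between 71.3% in DLBCL6 and 82.4% in DLBCL1 among the other DLBCL libraries, and 85.3, 74.5, 86.7 and 58.2% in Healthy2 to Healthy5. The interval of DLBCL3 lay above those of all 9 other libraries. Among these, the lowest share was that of Healthy5 (interval 54.2 to 62.2%), also outside the intervals of the other libraries. Over the 10 libraries, which share their scaling and differ in depth, Pearson's r of log2 CPM between miR-200c and miR-141 was 0.21 and Spearman's rho was 0.36, given as a description only, and r was 0.47 without DLBCL3. Between miR-200c and miR-375 Pearson's r was 0.84, but 0.30 without DLBCL3, so that this likeness rested on 1 library.

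**Figure D4:**
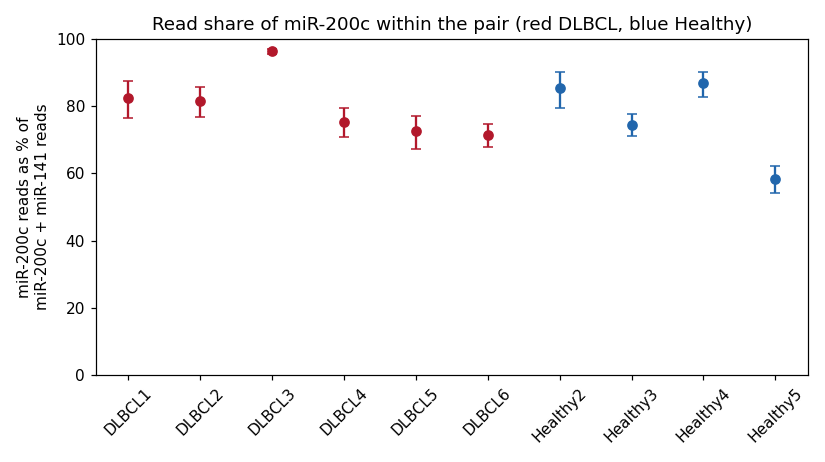
Reads of miR-200c as a percentage of the reads of miR-200c and miR-141 together (y axis, 0 to 100%) in each library, DLBCL in red and healthy in blue, with exact 95% binomial intervals. DLBCL3 was at 96.4%, above the other 9 libraries, which lay between 58.2% in Healthy5 and 86.7% in Healthy4.

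The high values of DLBCL3 were set against those of all miRNAs. Among the 275 miRNAs with at least 10 reads in some library, the CPM of the highest library was divided by that of the next. miR-200a had the largest such ratio of all, 68.8, with miR-375 at rank 4 (9.74), miR-200c at rank 14 (5.45), miR-203 at rank 23 (4.07, in DLBCL5), miR-429 at rank 31 (2.99) and miR-141 at rank 230 (1.08, in Healthy5). miR-200a and miR-429 reached 10 reads in DLBCL3 only. They thus entered the comparison through the library in which they were highest, and their ranks are a description. DLBCL3 was the highest library for 60 of the 275 and exceeded the next more than 4-fold for 11, which was 4% of them. The other libraries did so for 0 to 5. In the deposited TPM, without the TMM factors, the same ratio was 43.3 for miR-200a, 12.8 for miR-375, 3.41 for miR-200c and 1.21 for miR-429, still with DLBCL3 highest. It was 1.40 for miR-203, so that most of the excess of DLBCL5 over DLBCL6 came with the TMM factors of these libraries, 0.698 and 2.03. The 11 were miR-200a, miR-449a, miR-375, miR-486-3p, miR-486, miR-8803, miR-183, miR-200c, miR-671, miR-1 and miR-1844, named here after their values were seen. Of these, miR-486 is known from red blood cells, miR-1 from muscle and miR-449a from ciliated epithelium.

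**Figure D5:**
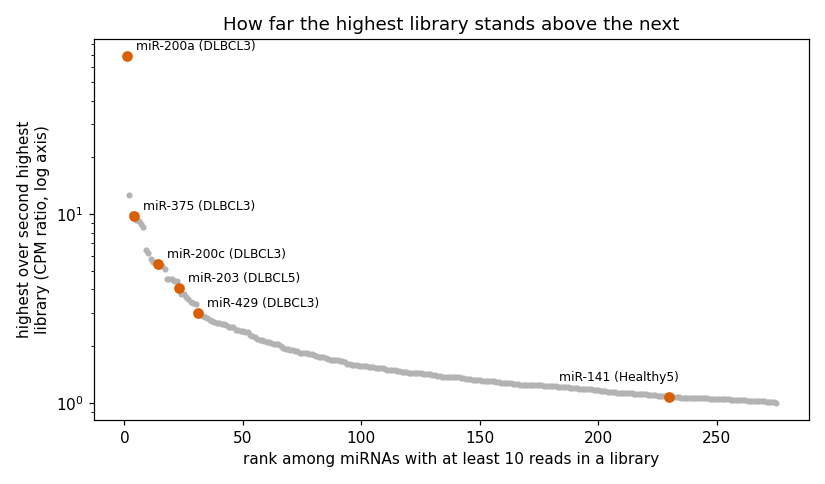
For 275 miRNAs with at least 10 reads in a library, the CPM of the highest library divided by that of the second highest (y axis, log scale), in descending order (x axis), with the 6 miRNAs of this set that reached 10 reads in orange and the name of their highest library. miR-200a stood at the top with 68.8, and miR-141 at rank 230 with 1.08. miR-200a and miR-429 reached 10 reads in DLBCL3 only, the library in which they were highest.

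By the rule of likeness, the smallest root mean square difference of centred log2 CPM over the 10 libraries, the miRNAs outside the set closest to miR-200c were miR-1844 (0.449), miR-532 (0.449) and miR-185 (0.468), against a median of 1.49 over all miRNAs tested. All 3 were highest in DLBCL3, at 101, 10345 and 1182 CPM. Closest to miR-141 were miR-215 (0.559), known from gut and kidney epithelium, miR-1835 (0.590) and miR-1838 (0.606), against a median of 1.20. Closest to miR-203 were miR-27a (0.635), miR-143 (0.690) and miR-193a (0.724), against a median of 1.36, and all 3 were highest in DLBCL5 among the DLBCL libraries. miR-143 is abundant in smooth muscle and stroma. Closest to miR-375 were miR-129 (1.23), miR-10b (1.48) and miR-671 (1.496), against a median of 2.45. The likeness of some of these rested on DLBCL3, as Pearson's r of miR-671 with miR-375 was 0.75 over the 10 libraries and 0.00 without it, and that of miR-1844 with miR-200c was 0.89 and 0.33. miR-129 is known from neural and endocrine cells, and measured 113 CPM in DLBCL3, 3.77 to 31.8 CPM in the other DLBCL libraries and 21.9 to 39.5 CPM in healthy nodes.

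Other miRNAs of epithelial and glandular tissues were looked up in lists chosen with earlier results known. The miR-183 cluster is expressed in sensory and other epithelia, but also in lymphoid cells. It summed to 14745 CPM in DLBCL3, 90.35 to 4550 CPM in the other DLBCL libraries and 157 to 421 CPM in healthy nodes. Its members did not move alike in DLBCL3. There miR-183 and miR-182 were at 4922 and 9586 CPM, 5.58 and 3.34 times the highest other library, whereas miR-96 was at 236 CPM, below DLBCL1 (798 CPM) and DLBCL2 (366 CPM). None of the 3 was a DEM (against 5.67% of all tested). miR-449a, of the ciliated epithelium list, was at 11.7 CPM in DLBCL3 and at most 1.17 CPM elsewhere, whereas miR-34c of the same list was highest in DLBCL4 with 207 CPM. Of the 4 miRNAs of this list 3 were listed and 2 tested, and neither was a DEM.

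The exocrine pancreas list, miR-216a, miR-216b and miR-217, was at its lowest where miR-375 was highest. It summed to 17.5 CPM in DLBCL3, the lowest of all libraries, to 662 CPM in DLBCL4, the highest of DLBCL, and to 914 to 1950 CPM in healthy nodes. Of its miRNAs 0 of 3 were called, where 5.67% of all tested were, so that counts in lists this short say little. In the gut and kidney list, 1 of 3 was a DEM, miR-192, which rose by 1.64 on the log2 scale (edgeR adjusted p = 0.0397), and DLBCL3 and DLBCL5 had the highest sums, 2747 and 2951 CPM. miR-31, a keratinocyte miRNA, rose by 3.64 on the log2 scale (edgeR adjusted p = 0.014), with 165 CPM in DLBCL3 and 64.2 CPM in DLBCL5, the lowest of the DLBCL libraries. miR-203 was highest in the library where miR-31 was lowest among DLBCL. The hepatocyte marker miR-122 was at 0.257 to 11.2 CPM and at 2.21 CPM in DLBCL3. Of the endocrine list, miR-7 and miR-129, both were highest in DLBCL3, at 46189 and 113 CPM, and neither was a DEM.

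Some markers of other cell types also set DLBCL3 apart. Of the lymphocyte and blood cell list, 0 of 8 were DEMs higher in DLBCL and 2 were lower, miR-150 and miR-146a (5.67% of all tested were DEMs). In DLBCL3, miR-146a, miR-181a, miR-181b and miR-223 were each at their lowest of the 10 libraries. miR-150 (1736 CPM) was above the other DLBCL libraries and below the healthy ones. miR-155, miR-142 and miR-342 were within the range of the other libraries. Of the red blood cell list, miR-486 was at 17490.1 CPM there against at most 1892 CPM elsewhere, while miR-451 (14261 CPM) was within the range of the other DLBCL libraries and miR-144 (2.35 CPM) below it, and 2 of the 3 were DEMs higher in DLBCL. Of the stroma and vessel list, 9 of 10 miRNAs were listed and 0 were called. In DLBCL3, miR-126, miR-125b, miR-99a, miR-145, miR-199 and miR-214 of this list were at 0.0222 to 0.0986 of the highest other library and each at its lowest of the 10 libraries. miR-10b of the same list went the other way, with 60142 CPM in DLBCL3, 2.54 times the highest other library. In DLBCL3 the summed list was at 208087 CPM, most of it miR-21 and miR-10b. This was within the DLBCL range of 118750.3 to 509557 CPM and below the healthy range of 215928 to 271413 CPM. In DLBCL5 the list reached that highest sum, mostly of miR-21 (257265 CPM), miR-99a (162740.8 CPM) and miR-143 (69210.5 CPM). miR-126, miR-145, miR-199, miR-214 and miR-125b were below every healthy library in DLBCL5, and miR-10b (18488 CPM) was within the healthy range. Of the muscle list, 7 of 8 were listed and 0 of 4 tested were called, and the list summed to 828 CPM in DLBCL3 and 3238 CPM in DLBCL5, its highest library. miR-1 and miR-206 were highest in DLBCL3 (301 and 51.0 CPM), but miR-499 was at its lowest there (468 CPM, against 3172 CPM in DLBCL5), and miR-133c (7.53 CPM) was below DLBCL1 and DLBCL5. miR-133b, miR-208a and miR-208b were below 1 CPM in every library. The part of these cell types in the values of miR-200a, miR-200c, miR-375 and miR-203 was not tested.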

How the data were processed

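Small RNA libraries of 10 canine lymph nodes were grouped and numbered by their titles. Per the labels and the study's methods, the authors cleaned the reads, mapped them with Bowtie 0.12.9 (build CanFam3.1 in the submitters' notes), discarded those from repeats, rRNA, tRNA and similar RNAs, and took miRNAs from miRBase with miRDeep2. The authors deposited raw read counts and TPM values, the latter equal within 4.55e-05 to counts scaled by each library's miRNA reads. Trimming, mapping and counting choices, such as the treatment of reads shared by related miRNAs, pass into these counts and could not be varied.

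Counts were tested on the whole table with edgeR 4.0.16 in R 4.3.3 (TMM, default filter by group, quasi-likelihood, Benjamini-Hochberg over 247 miRNAs, biological coefficient of variation 0.731). Log2 CPM used a prior count of 2. Single miRNAs were tested with two-sided exact permutation in Python 3.11.15 (numpy 2.4.6, pandas 2.3.3, scipy 1.17.1, matplotlib 3.10.9). Alternatives were DESeq2 1.42.0, limma 3.58.1, other scalings and filters, the Q30 group, the replicate number as a block and each library left out. Leaving out DLBCL3 and DLBCL5 together, leaving out DLBCL3 in the permutation tests, and the comparison of highest libraries in TPM, were chosen after seeing the data. The fits were tested on simulated data. Libraries of one group differed beyond sampling noise, with a chi-squared per degree of freedom of at least 1865. The miRNAs, marker lists and tests were chosen with earlier results of these data known. The miRNAs named are the 8, the 3 most like each one tested, the marker lists, and others said to be named after their values were seen. Labels do not say more of the dogs than one library each, so that p-values measure the spread between these samples.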

Additional observations from a re-analysis of the deposited data

Results flagged for a closer look

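Of 18 group ranges of CPM, sums and ratios examined, 10 had a highest library far outside the rest by Dixon's criterion. Chance gives about 1 in 20 among independent, normally distributed ranges, and these are neither, since CPM is skewed and the sum and the ratio repeat the values of DLBCL3. The 10 are therefore a description. In DLBCL3 these were miR-200a (14.5 CPM), miR-200c (108 CPM), miR-375 (72.6 CPM), miR-429 (0.518 CPM), miR-205 (0.329 CPM), the summed level of the 8 miRNAs (203 CPM) and the ratio of miR-200c to miR-141 (26.6). In DLBCL5 they were miR-203 (48.7 CPM) and miR-200b (0.0651 CPM, which is 1 read), and among the healthy libraries miR-375 in Healthy4 (7.46 CPM). The values of miR-429 and miR-205 in DLBCL3 rest on 11 and 7 reads, and that of miR-200b meets the criterion by construction, as all other values are 0. In the deposited TPM, 6 of the 10 still met it, and miR-203 in DLBCL5 (gap over range 0.309), miR-429 and miR-205 in DLBCL3 (0.174 and 0.595) and miR-375 in Healthy4 (0.592) did not. Of these 6, the ratio, in which the scaling cancels, and miR-200b could not have changed.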

How the results depend on the processing

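The count of DEMs over all miRNAs, 14 with edgeR, was 8 with DESeq2's size factors, 23 with total miRNA reads (where the median over the 247 miRNAs moved from 0.13 to 0.82 on the log2 scale), 45 with DESeq2, 49 without its outlier filter, 46 with limma-voom and quality weights, 46 within the lower Q30 libraries, 7 with the Q30 group as a covariate and 26 without both DLBCL3 and DLBCL5, a setting chosen after seeing the data. Leaving out single libraries gave 1 (Healthy4) to 23 (DLBCL4). It was 3 without DLBCL1, 22 without DLBCL3, and 2, 5 and 6 without Healthy2, Healthy3 and Healthy5. The count of DEMs among those of the 8 miRNAs that a fit tested was 0, also with each library left out, except that it was 1 with DESeq2 without its outlier filter. The main fit and those with a library left out tested only the 4 miRNAs that passed the filter on low counts. The replicate number as a block left 1 DEM. Same-numbered dogs are different animals, and the correlations of their deviations ranged from -0.33 to 0.26, so that the numbers do not pair them.

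Signs changed as follows. miR-200c was at -0.19 with limma-voom, -0.23 within the lower Q30 libraries, -0.22 with the Q30 covariate and -0.27 without DLBCL3 and DLBCL5, and ranged from -0.07 to 1.46 with one library left out. miR-141 was at 0.32 with total reads, 0.47 with limma on log2 TPM with 1 added and 0.03 with the replicate block, and ranged from -0.47 to 0.13. miR-203 was at -0.17 with limma-voom, -0.12 with the block and -0.50 without DLBCL3 and DLBCL5, and ranged from -0.54 to 0.73. miR-375 was at -1.90 with limma-voom, -2.62 within the lower Q30 libraries, -2.59 with the Q30 covariate, -0.93 with the block and -2.30 without DLBCL3 and DLBCL5, and ranged from -2.25 to 3.13. None of these passed the adjusted threshold. The difference of mean log2 CPM changed sign for miR-203 with total reads (exact permutation p = 0.452) and, without DLBCL3, for miR-200c (exact p = 0.905), miR-203 (exact p = 0.921) and miR-205 (exact p = 0.571). All healthy libraries were of lower Q30, so the fold change with the Q30 covariate rests on the lower Q30 libraries alone, without DLBCL3. It is therefore not a result apart from the fit within those libraries. With the replicate block, DLBCL1 and DLBCL6 have no healthy library of the same number and do not enter the contrast. For the other settings that keep all libraries, the cause was not tested. Without a filter on low counts, miR-200a and miR-429 had adjusted p-values of 0.147 and 0.129 from edgeR. Mean levels moved by less than 1 SD between CPM and the deposited TPM, with SDs that DLBCL3 and DLBCL5 made wide, so that this does not show that the scaling is without effect (total reads moved the exact permutation p of miR-200c from 0.7 to 0.0905). Below 0.0743 to 0.251 CPM, depending on the library, differences between libraries were not detectable.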
